A study of Drosophila melanogaster with 4 samples.

Results

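The pericentric heterochromatin of chromosome 3 is described here through the regions enriched for the linker histone H1 on 3LHet and 3RHet. These are the sequences of Drosophila melanogaster genome release 5 that hold mapped heterochromatic scaffolds of the left and right arm of chromosome 3. The regions, called clusters below, were chosen by sequence name alone from the list that the authors made for the replicate set. That list, called the combined list, held 796 clusters on these sequences, 391 on 3LHet and 405 on 3RHet, of 15736 in all. The lists of the single replicates held 138 of 2771 clusters there in replicate 1 and 391 of 2922 in replicate 2.

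The chromatin was that of head nuclei from adult flies of the strain Oregon-R, whose genotype is wild type in all groups. Heads were separated from whole flies by sieving, the stage is labelled mixed adult, and no sex is given. The 4 samples were 2 H1 chromatin immunoprecipitation (ChIP) samples and 2 input samples, each input tied by the labels to the ChIP sample of its number. Nothing says whether the replicates came from separate fly collections, so the spread between them may be technical. With 1 group of 2 replicates no test between conditions exists, so values are given per list, with a mean and SD (n = 2) where useful.

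H1 sits on the nucleosome near the entry and exit points of its DNA, and helps to compact arrays of nucleosomes. In flies it is known as a component of pericentric heterochromatin, where it takes part in the silencing of transposable elements and in the placement of histone H3 lysine 9 methylation. This heterochromatin consists largely of transposable elements and satellite repeats, and the assembled scaffolds hold the part of it that could be sequenced and mapped. That 3LHet and 3RHet are heterochromatic rests on the assembly, since no heterochromatin mark was measured in the samples used here. No base sequence or gene of these regions is given, because the gene table used here is of release 6.

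The replicates stood apart on these sequences before any comparison of the arms. Replicate 2 had 2.83 times as many clusters there as replicate 1, while it had 0.794 times as many on 2L, 2R, 3L and 3R together, the large autosomal arms. Together 3LHet and 3RHet were covered to 4.58% of their bases in replicate 1 and to 15.2% in replicate 2. The large autosomal arms were covered to 3.96% and 3.19%. The reduced input count, a relative measure of how many input reads a cluster rests on that was derived from the scores, was also lower on these sequences. Per kb of cluster, its median in replicate 1 was 40.3, against 63.2 on the large autosomal arms. It was 53.8 against 76.1 in replicate 2 and 81.6 against 152 in the combined list. On 3LHet and 3RHet taken apart it was 40.4 and 40.3 in replicate 1. It was lower on 3RHet in replicate 2, at 63.9 and 46.6, and in the combined list, at 89.8 and 74.6. On 2RHet, the heterochromatic sequence of the right arm of chromosome 2, it was 42.9, 45.4 and 87.6 in replicate 1, replicate 2 and the combined list. Low values were thus not particular to 3LHet and 3RHet. The part of input depth in the results below was not tested, and depth itself is unknown.

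3RHet carried more H1 coverage than 3LHet in each of the 3 lists. In replicate 1, clusters covered 102 kb of 3LHet and 131 kb of 3RHet, which is 3.99% and 5.19% of all bases. In replicate 2 they covered 318 kb and 453 kb, or 12.4% and 18.0%. The combined list covered 876 kb of 3LHet and 1045 kb of 3RHet, or 34.3% and 41.5%. Coverage of 3RHet was thus 1.30 times that of 3LHet by replicate 1, 1.45 times by replicate 2 and 1.21 times by the combined list. The mean over replicates was 8.21% ± 5.97 (SD, n = 2) on 3LHet and 11.6% ± 9.06 (SD, n = 2) on 3RHet. The sequences therefore differed by less than the spread between replicates, although both replicates had the same order, with a mean ratio of 1.37 ± 0.104 (SD, n = 2).

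The excess on 3RHet had a different make-up in the replicate lists and the combined list. In the replicates it lay mostly in the number of clusters. Replicate 1 had 63 clusters on 3LHet and 75 on 3RHet, or 24.6 and 29.8 per Mb. Replicate 2 had 166 and 225, or 65.0 and 89.4 per Mb. The number per Mb on 3RHet was 1.21 and 1.38 times that on 3LHet in replicates 1 and 2, and the mean length 1.08 and 1.05 times. In the combined list the order of these factors turned, with 153 and 161 clusters per Mb, a ratio of 1.05, and mean lengths of 2241 bp and 2580 bp, a ratio of 1.15.

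Combined clusters were longer on both sequences than on the large autosomal arms. The median length of combined clusters was 1779 bp on 3LHet (interquartile range 1242 to 2696 bp), 1960 bp on 3RHet (1329 to 3367 bp) and 1540 bp on the large autosomal arms (1173 to 2101 bp). Replicate medians were 1523 and 1612 bp on 3LHet and 3RHet in replicate 1, and 1698 and 1801 bp in replicate 2. On the large autosomal arms they were 1526 bp and 1530 bp, so there the replicates were nearly alike. At least 4 kb was reached by 36 of 391 combined clusters on 3LHet (9.21%) and by 68 of 405 on 3RHet (16.8%), against 5.00% of the whole list and 4.54% on the large autosomal arms. The last 1 Mb of 3L, at its centromere end, had a median of 1884 bp and 10.0% of at least 4 kb. On 2RHet, the heterochromatic sequence of the right arm of chromosome 2, these values were 1666.5 bp and 9.85%. They were 1277 bp and 0.901% in the first 1 Mb of 3R, at its centromere end. Longer clusters were thus not particular to 3LHet and 3RHet. With clusters under 1301 bp left out, a cut on length itself, the medians of 3LHet and 3RHet differed by 520.5 bp in place of 181 bp. Among the clusters of at least 8 kb the order was the other way, with 6 on 3LHet and 3 on 3RHet. There were 4 of 396 on 2RHet and 28 of 12086 on the large autosomal arms. On 3RHet, clusters of 7961 and 7956 bp lay just under that cut.

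Combined clusters lay close together on both sequences. The median gap between neighbours was 1816 bp on 3LHet and 1359 bp on 3RHet, and 2204.5 bp on the large autosomal arms. It was 1567 bp in the last 1 Mb of 3L, 2072 bp on 2RHet and 3164 bp in the first 1 Mb of 3R. Gaps of at most 1 kb made up 35.4% of the 390 gaps on 3LHet and 41.8% of the 404 gaps on 3RHet, and 31.3% on the large autosomal arms. In replicate 2 the median gap was 5490 bp on 3LHet and 4038.5 bp on 3RHet, while it was 18358 bp on the large autosomal arms. Replicate 1 gave another order, with 16474 bp on 3LHet, 18645.5 bp on 3RHet and 22546 bp on the large autosomal arms. By median gap, closer spacing on 3RHet than on 3LHet was therefore seen in replicate 2 and the combined list. In replicate 1 the median gap was 2171.5 bp longer on 3RHet. The share of gaps of at most 1 kb went against the median in both replicates. It was 4.84% on 3LHet and 6.76% on 3RHet in replicate 1, and 17.0% and 15.2% in replicate 2. On the large autosomal arms it was 6.3% and 5.6%.

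**Figure D1:**
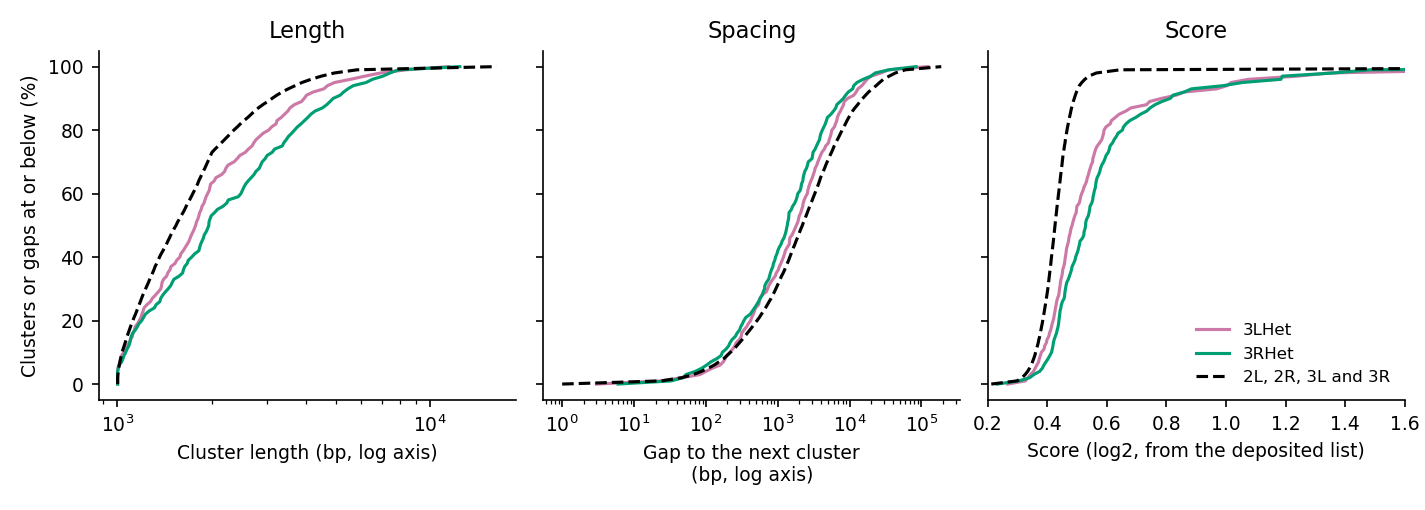
Cumulative share (y axis, percent) of combined-list clusters or gaps at or below a length in bp, a gap to the next cluster in bp (both log axes) and a log2 score, for 3LHet, 3RHet and the 4 large autosomal arms together. The score axis ends at 1.6. The median length is 1779 bp on 3LHet, 1960 bp on 3RHet and 1540 bp on the arms, and the score curves of 3LHet and 3RHet lie to the right of that of the arms.

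Scores, which the authors deposited and which were read from their values as log2 enrichment of ChIP over input, were slightly higher on 3RHet than on 3LHet. In replicate 1 the median score was 0.72 on 3LHet and 0.74 on 3RHet. It was 0.65 and 0.70 in replicate 2. The combined list had 0.48 and 0.53. As fold enrichment, the combined medians were 1.40-fold and 1.44-fold, against 1.34-fold on the large autosomal arms. The interquartile range of scores, from 0.43 to 0.57 on 3LHet and from 0.45 to 0.61 on 3RHet, overlapped over most of its width. The difference of 0.045 between the combined medians was 0.022 among the highest-scoring 50%. That cut is on the score itself, so it is no independent check of this difference. Levels of scores were not compared between lists.

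Both sequences had a tail of high scores in each list. In the combined list its clusters were shorter in the median and had smaller reduced input counts than the others. A score over 1, which is more than 2-fold enrichment, was found for 25 of 391 combined clusters on 3LHet (6.39%) and 24 of 405 on 3RHet (5.93%), against 2.50% of the whole list and 0.323% on the large autosomal arms. The share was 5.56% on 2RHet, and on 2LHet, its left-arm counterpart, it was 14.8% (4 of 27 clusters). It was 2.94% in the last 1 Mb of 3L. The tail was thus not particular to 3LHet and 3RHet. In replicate 1 a score over 1 was found for 8 of 63 clusters on 3LHet (12.7%) and 3 of 75 on 3RHet (4.0%). The share was 0.174% on the large autosomal arms. In replicate 2 it was 6 of 166 (3.61%) and 18 of 225 (8.0%), against 0.549% on the arms. Which of 3LHet and 3RHet had the larger share thus differed between the replicates. Combined clusters with a score over 1 had a median length of 1133 bp on 3LHet and 1108.5 bp on 3RHet. Their median reduced input count was 13 and 10, against 185 and 161.5 for the others. The reduced input count is not the authors' own count. Common factors reduce it, so it serves only to compare clusters of the same list. Of the high-scoring clusters, 3 on 3LHet (12%) and 6 on 3RHet (25%) overlapped a cluster of a replicate, against 44.2% and 53.3% of all combined clusters there. This overlap was not computed for high-scoring clusters of other sequences. Of the high-scoring clusters, 17 of 25 on 3LHet and 18 of 24 on 3RHet were shorter than any replicate cluster. The highest score on 3LHet was 3.44 at 849792 to 851808 (2017 bp, 10.8-fold), with a reduced input count of 2. On 3RHet it was 3.19 at 668048 to 669048 (1001 bp, 9.12-fold), with a reduced input count of 1. Neither had a cluster in a replicate.

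Among clusters as long as the shortest of the replicates, 1301 bp, the next highest on 3LHet were at 2290931 to 2292646 (2.63-fold), with no replicate cluster, and at 135783 to 137988 (2.33-fold). The latter was covered to 82.1% in replicate 1 and had no cluster in replicate 2. On 3RHet the 3 highest of that length were at 758347 to 759729 (3.33-fold), 538680 to 540627 (2.28-fold) and 1616317 to 1618293 (2.28-fold). Their reduced input counts were 12, 1 and 1. Replicate 2 covered the first in full and the second to 65.1%, and replicate 1 had no cluster in any of them.

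Along the sequences, coverage in bins of 100 kb varied several-fold, and neither sequence was covered evenly. Over the 25 full bins of 3LHet, combined coverage ran from 7.21% through a median of 36.5% to 58.2%. Over the 25 full bins of 3RHet it ran from 14.9% through 49.8% to 69.9%. At least 50% was reached by 3 bins of 3LHet and 11 of 3RHet, against 39 of 965 bins of the large autosomal arms (4.04%), where the median bin was covered to 20.8%. In replicate 1 the bins ran from 0% through 4.17% to 9.28% on 3LHet and from 0% through 4.86% to 14.2% on 3RHet. In replicate 2 they ran from 0% through 10.2% to 31.1% and from 1.71% through 19.3% to 37.1%.

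**Figure D2:**
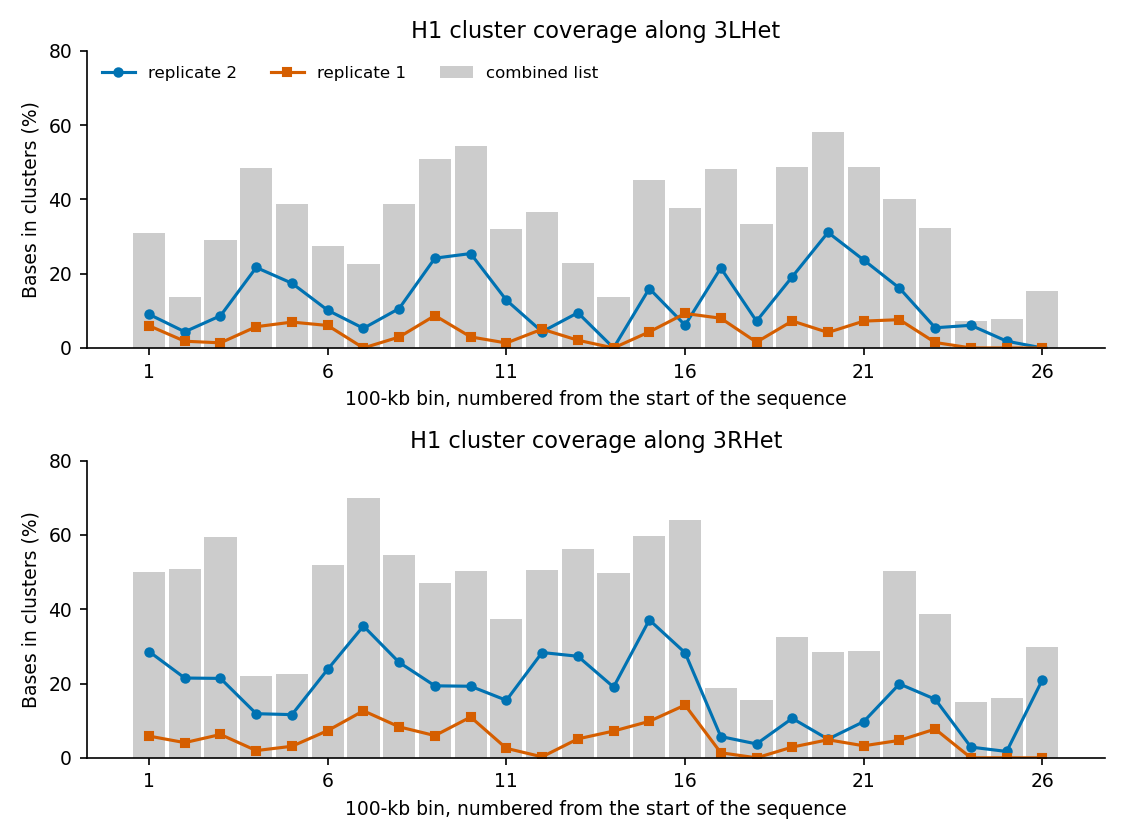
Share of bases in H1 clusters (y axis, percent) in 100-kb bins along 3LHet (top) and 3RHet (bottom), numbered from the start of each sequence. Grey bars are the combined list, blue circles replicate 2 and orange squares replicate 1, and the last bin of each sequence is a shorter end piece. Combined coverage is highest at 58.2% on 3LHet (bin 20) and 69.9% on 3RHet (bin 7). Bins 24 and 25 of both sequences are below the median full bin of their sequence in all lists.

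The most covered bins of 3LHet lay from 1.9 to 2.0 Mb, 0.9 to 1.0 Mb and 0.8 to 0.9 Mb. The first had 58.2% in the combined list, 31.1% in replicate 2 and 4.17% in replicate 1. The second had 54.5%, 25.4% and 2.98%, and the third 50.8%, 24.2% and 8.72%. Replicate 2 was thus high in each, and replicate 1 was above its own median in the third alone, at its median in the first and below it in the second. The least covered were from 2.3 to 2.4 Mb (7.21%), 2.4 to 2.5 Mb (7.86%) and 0.1 to 0.2 Mb (13.8%). From 1.3 to 1.4 Mb both replicates had no cluster, and the combined list covered 13.8%.

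On 3RHet the most covered bins lay from 0.6 to 0.7 Mb, 1.5 to 1.6 Mb and 1.4 to 1.5 Mb. Replicate 1 covered them to 12.7%, 14.2% and 9.83%, replicate 2 to 35.5%, 28.3% and 37.1%, and the combined list to 69.9%, 63.9% and 59.8%. Here all lists were high together. The least covered were from 2.3 to 2.4 Mb (14.9%), 1.7 to 1.8 Mb (15.7%) and 2.4 to 2.5 Mb (16.1%), and replicate 1 had no cluster in any of these. In blocks drawn after the bins were seen, the first 1.6 Mb of 3RHet was covered to 49.7% in the combined list, 23.4% in replicate 2 and 6.61% in replicate 1. The stretch from 1.6 to 2.5 Mb had 27.1%, 8.35% and 2.76%. A dip from 0.3 to 0.5 Mb, with 22.3% in the combined list, broke the first block, and the bin from 2.1 to 2.2 Mb, with 50.2% in the combined list and 19.9% in replicate 2, stood above the sequence medians within the second.

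The last full bins of both sequences were poor in H1 clusters relative to each sequence as a whole. From 2.3 to 2.5 Mb the combined list covered 7.54% of 3LHet and 15.5% of 3RHet, replicate 2 covered 3.96% and 2.30%, and replicate 1 had no cluster. The median bin of the large autosomal arms was covered to 20.8% in the combined list, 1.75% in replicate 2 and 3.31% in replicate 1. In replicate 2 these stretches were thus not below it. The shorter end piece beyond 2.5 Mb held 55491 bp on 3LHet, with 6 combined clusters, and only 17507 bp on 3RHet, with 3. It was covered to 15.3% in the combined list and 0% in replicate 2 on 3LHet, and to 29.7% and 21.0% on 3RHet. Replicate 1 had no cluster in either piece. The last cluster of replicate 1 ended at 2207386 on 3LHet and at 2295740 on 3RHet. How scaffolds are ordered and oriented within these sequences was not examined, so a position along them is not a distance from the centromere.

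Long stretches without a combined cluster took up nearly the same share of both sequences. Stretches of at least 20 kb numbered 12 on each and held 479 kb of 3LHet (18.8%) and 480.0 kb of 3RHet (19.1%). This count and share were not computed for other sequences. The 97th percentile of gaps between combined clusters was 19992 bp on 3LHet and 19717 bp on 3RHet. It was 35517 bp on the large autosomal arms, so by this measure long gaps were shorter here. The longest stretches on 3LHet were at 2327433 to 2450274 (122842 bp), 84966 to 135782 (50817 bp) and 1210669 to 1254078 (43410 bp), and neither replicate had a cluster in them. On 3RHet they were at 438183 to 522421 (84239 bp), 2359518 to 2443628 (84111 bp) and 1677822 to 1738915 (61094 bp). Within the first of these, replicate 2 had a cluster at 446295 to 447712 (3.81-fold) that the combined list lacks, and 2 others reached over its edges. The share of bases to which reads could be aligned, assembly gaps included, was not determined.

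The replicates placed coverage in similar bins but at different levels. Coverage of the full bins was related between replicates with Spearman's rho = 0.60 on 3LHet (Pearson's r = 0.56, 25 bins) and rho = 0.68 on 3RHet (r = 0.70, 25 bins), given as a description, since neighbouring bins share a library and a sequence. Replicate 2 was above replicate 1 in 22 of 25 bins of 3LHet and in 25 of 25 bins of 3RHet. The exceptions on 3LHet were the bins from 1.1 to 1.2 Mb, with 5.06% in replicate 1 and 4.36% in replicate 2, from 1.5 to 1.6 Mb, with 9.28% and 6.14%, and from 1.3 to 1.4 Mb, where both were at 0%. The widest gap in the other direction on 3RHet was from 1.1 to 1.2 Mb, where replicate 1 had 0.272% and replicate 2 had 28.4%.

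**Figure D3:**
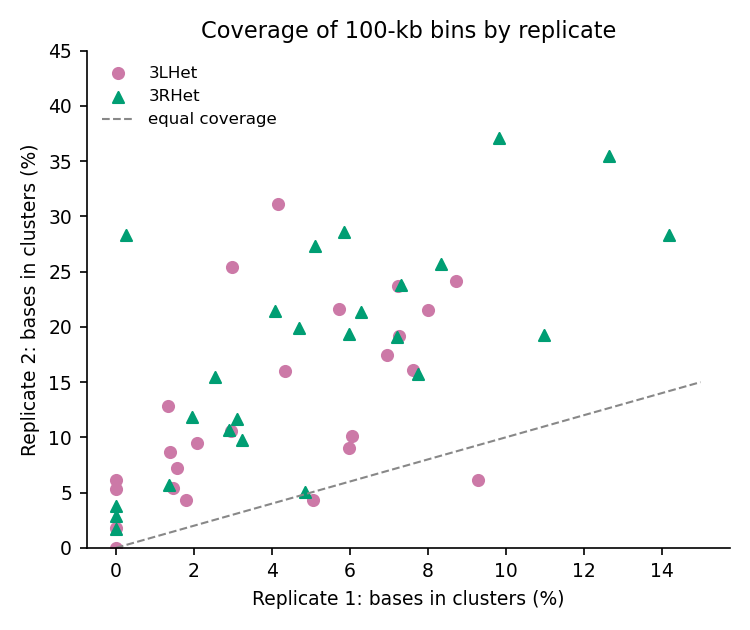
Share of bases in clusters in each full 100-kb bin, replicate 1 on the x axis and replicate 2 on the y axis (percent, different scales), for 3LHet (circles) and 3RHet (triangles). The dashed line marks equal coverage. On 3RHet 25 of 25 bins lie above the line, and on 3LHet 22 of 25.

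Stretches covered in both replicates made up a small part of replicate 2 and a larger part of the shorter list of replicate 1. On 3LHet 36.6 kb lay in both, 65.4 kb in replicate 1 alone and 281 kb in replicate 2 alone. On 3RHet the values were 57.9 kb, 72.6 kb and 395 kb. Shared bases were 9.54% of the bases in either replicate on 3LHet and 11.0% on 3RHet, a share not computed for other sequences. Among the highest-scoring 50% of each list they were 3.08% and 9.38%, so the sequences were less alike there. As a share of each list they were 35.9% of replicate 1 and 11.5% of replicate 2 on 3LHet, and 44.4% and 12.8% on 3RHet. The shared stretches numbered 36 on 3LHet, with a median length of 1153.5 bp, and 50 on 3RHet, with a median of 1260 bp. They fell in 16 of 25 full bins of 3LHet and 21 of 25 of 3RHet.

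Counted as clusters, 34 of 63 clusters of replicate 1 on 3LHet (54.0%, 95% Wilson interval 41.8 to 65.7) and 48 of 75 on 3RHet (64.0%, 52.7 to 73.9) overlapped a cluster of replicate 2 by at least 1 bp, against 18.3% of its whole list. Of the clusters of replicate 2, 35 of 166 on 3LHet (21.1%, 15.6 to 27.9) and 50 of 225 on 3RHet (22.2%, 17.3 to 28.1) overlapped replicate 1, against 17.7% of its whole list. The share for replicate 2 was thus near that of its whole list, and the share for replicate 1 well above. On 2RHet 23 of 48 clusters of replicate 1 (47.9%, 34.5 to 61.7) overlapped replicate 2. Of those of replicate 2 there, 24 of 139 (17.3%, 11.9 to 24.4) overlapped replicate 1. The high share for replicate 1 was thus not particular to 3LHet and 3RHet. Replicate 2 covered 3.32 times as large a share of these sequences as replicate 1, and the part of this in the overlap was not tested. The intervals of 3LHet and 3RHet overlapped in both directions, and they cover counting error only.

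The scores of overlapping clusters were related between the replicates on both sequences, given as a description. Across 36 overlapping pairs on 3LHet, Spearman's rho between the scores was 0.47, and across 50 pairs on 3RHet it was 0.62, where pairs can share a cluster. Median scores in replicates 1 and 2 were 0.66 and 0.61 for the pairs of 3LHet and 0.75 and 0.72 for those of 3RHet. On 3LHet, shared clusters of replicate 1 had a lower median score than unshared ones, at 0.65 and 0.77, and so did those of replicate 2, at 0.61 and 0.65. On 3RHet the order was the other way, at 0.75 and 0.72 in replicate 1 and 0.72 and 0.70 in replicate 2.

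The longest stretch covered in both replicates lay on 3RHet at 1518290 to 1521737 (3448 bp). It was a whole cluster of replicate 2 (1.39-fold) inside a cluster of replicate 1 at 1517749 to 1521896 (1.39-fold). The next on 3RHet were at 744815 to 747487 (2673 bp), with 1.87-fold in replicate 1 and 1.83-fold in replicate 2, and at 378753 to 380703 (1951 bp), with 1.69-fold and 1.65-fold. On 3LHet the longest was at 1281132 to 1283212 (2081 bp), a cluster of replicate 1 (1.35-fold) inside a cluster of replicate 2 (3764 bp, 1.47-fold). It was followed by 547769 to 549535 (1767 bp), with 1.54-fold and 1.63-fold, and 1564303 to 1566051 (1749 bp), with 1.62-fold and 1.47-fold. Fold enrichment here is 2 raised to the deposited score, under its reading as log2, and its level was not tested between lists.

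The longest clusters found in 1 replicate alone were longer in replicate 2 on both sequences. In replicate 2 they were at 281659 to 286278 on 3LHet (4620 bp, 1.69-fold) and at 38617 to 45997 on 3RHet (7381 bp, 1.54-fold). In replicate 1 they were at 1175618 to 1177741 on 3LHet (2124 bp, 1.74-fold) and at 1536113 to 1539175 on 3RHet (3063 bp, 1.70-fold). The combined list covered all 4 of these in full.

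Combined clusters that met both replicates numbered 34 of 391 on 3LHet (8.70%, 95% Wilson interval 6.29 to 11.9) and 50 of 405 on 3RHet (12.3%, 9.49 to 15.9), against 3.57% of the whole list. Among the highest-scoring 50% of each list the share was 3.58% on 3LHet and 10.2% on 3RHet. It was not computed for the whole list under that filter, so 3.57% is no reference for these 2 values. Clusters that met replicate 2 alone were far more numerous than those that met replicate 1 alone, with 117 and 22 on 3LHet and 144 and 22 on 3RHet. On the large autosomal arms the order was the other way, with 1358 and 1771. Neither replicate was met by 218 clusters on 3LHet (55.8%) and 189 on 3RHet (46.7%), against 69.9% of the whole list. Clusters in both were the longest class, with medians of 4046 bp on 3LHet and 4397.5 bp on 3RHet, and those in neither had 1388.5 bp and 1374 bp. A longer cluster has more room to meet a replicate cluster, so these shares and lengths are not independent.

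**Figure D4:**
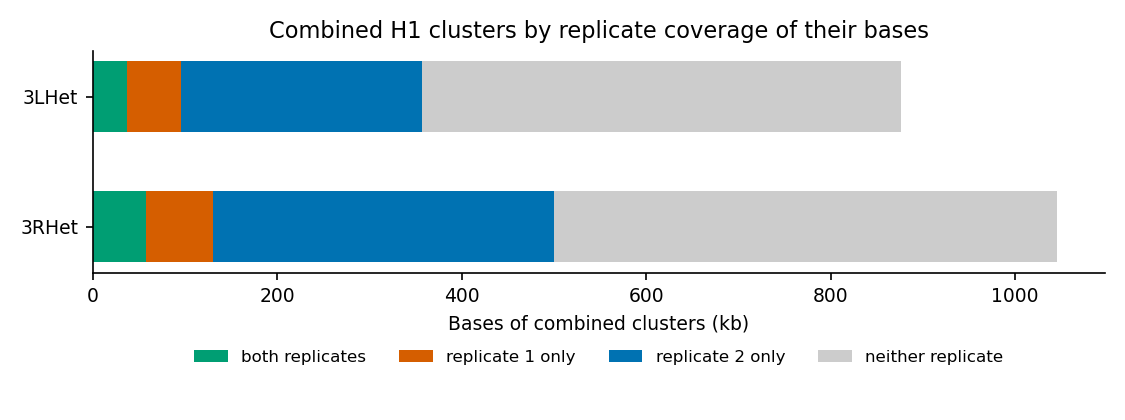
Bases of the combined clusters (x axis, kb) on 3LHet and 3RHet, split by whether they lie in clusters of both replicates, of replicate 1 only, of replicate 2 only or of neither. Bases in neither replicate make up 59.3% of the bar on 3LHet and 52.1% on 3RHet, and those in both are 36.6 kb and 57.9 kb.

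Base by base, the combined list added much that neither replicate held and left out little. It added 520 kb on 3LHet (59.3% of its bases there) and 544 kb on 3RHet (52.1%). This share of bases was not computed for other sequences. Counted by whole clusters, those that met neither replicate held 39.8% of combined cluster bases on 3LHet and 28.6% on 3RHet. On the large autosomal arms they held 59.3%, so there the combined list added more. The combined list left out 26.6 kb of replicate bases on 3LHet (6.95% of those in either replicate) and 25.2 kb on 3RHet (4.80%). All bases shared by the replicates were in the combined list on both sequences, which is not independent of them.

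The longest combined cluster of 3RHet, at 114988 to 127458 (12471 bp, 1.51-fold), was met by 4 clusters of replicate 2 and 1 of replicate 1. Replicate 2 covered 64.2% of it, and its cluster at 125761 to 127488 had the highest value there (2.59-fold). Replicate 1 covered 20.8%, with its cluster at 117874 to 120471 (1.78-fold). The next longest of 3RHet, at 1543984 to 1553743 (9760 bp, 1.45-fold), was covered to 19.9% in replicate 1 and 67.7% in replicate 2. The others were at 2208855 to 2217150, 204869 to 212829 and 38436 to 46391, from 7956 to 8296 bp long. The last of them was covered to 92.8% by a single cluster of replicate 2 and had none of replicate 1, while the other 4 had clusters of both.

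On 3LHet the longest combined cluster, at 348765 to 360243 (11479 bp, 1.39-fold), was covered to 33.0% in replicate 2, by 2 neighbouring clusters, and had none of replicate 1. The next, at 2145098 to 2155410 (10313 bp, 1.46-fold), had 3 clusters of replicate 2 (56.1%) and 2 of replicate 1 (38.7%), with 1393 bp in both. The third, at 884764 to 894628 (9865 bp, 1.39-fold), had 3 clusters of replicate 2 (68.8%) and none of replicate 1. The fourth, at 833587 to 842925 (9339 bp, 1.53-fold), had clusters of both, and the fifth, at 2111041 to 2119341 (8301 bp), was met by replicate 2 alone. Of the 5 longest combined clusters, 2 on 3LHet and 4 on 3RHet thus met both replicates.

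Clusters also lined up in runs with gaps of at most 1 kb. The 391 clusters of 3LHet formed 253 runs, of which 173 were single clusters, and the 405 of 3RHet formed 236 runs, of which 143 were single. On the large autosomal arms 12086 clusters formed 8303 runs, of which 5862 were single, and a run held up to 11 clusters. Runs were thus not particular to 3LHet and 3RHet. The longest run of 3LHet went from 914443 to 941286 and held 8 clusters of 1968 to 5324 bp, covering 24.9 kb of 26.8 kb. Their fold enrichment was from 1.28 to 1.44. Replicate 2 had 6 clusters in it, covering 44.8%, and replicate 1 had none. The longest run of 3RHet went from 1438144 to 1470291, with 7 clusters of 1510 to 6948 bp covering 29.3 kb of 32.1 kb, at 1.33-fold to 1.48-fold. Replicate 2 had 7 clusters there, covering 62.7%, and replicate 1 had 4, covering 20.0%, with 2493 bp in both.

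Set beside neighbouring and similar sequence, 3LHet and 3RHet differed in how they related to the arms they adjoin. The last 1 Mb of 3L, at its centromere end, had a coverage of 4.62% (replicate 1), 12.1% (replicate 2) and 37.9% (combined list), values close to the 3.99%, 12.4% and 34.3% of 3LHet. The first 1 Mb of 3R, at its centromere end, was covered to 2.91%, 1.21% and 17.1%, each below the 5.19%, 18.0% and 41.5% of 3RHet. The excess of replicate 2 over replicate 1 was therefore present on 3LHet, 3RHet and the end of 3L, and absent from the end of 3R. On 2RHet, the heterochromatic sequence of the right arm of chromosome 2, coverage was 2.37%, 8.64% and 25.6%, lower than on 3LHet and 3RHet in each list. The ratio of replicate 2 to replicate 1 was 3.64 there, 3.12 on 3LHet and 3.47 on 3RHet. These differences between sequences of the same libraries were not tested.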

How the data were processed

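Per the labels, H1 ChIP and input were sequenced from adult head nuclei, with 2 samples each. The files are 3 cluster lists, 1 called per ChIP sample and 1 for the replicate set. Alignment used Bowtie 0.12.7, according to the submitters' processing notes. Not given in the sources used here are the caller, its threshold and the way replicates were combined. Per the file headers, the build is FlyBase release 5, and coordinates are printed 1-based. The score that the authors deposited has no name and was read from the values as log2 enrichment of ChIP over input. Raised as a power of 2, 99.96%, 99.97% and 99.93% of scores (replicate 1, replicate 2, combined) were a ratio of whole numbers, with divisors up to 2000 and a tolerance of 1e-12, times 1 constant per list (1.17, 1.11 and 1.14). The divisor in lowest terms is the reduced input count. It is a relative measure, since common factors lower it and the constant is known up to a whole-number factor. Of the 796 combined clusters here, 794 gave one. Depth is unknown.

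Coverage counts all bases of a sequence, overlap needs at least 1 bp, and shares of clusters carry 95% Wilson intervals. Intervals were handled in Python 3.11.15 with numpy 2.4.6, pandas 2.3.3 and scipy 1.17.1, and the functions were tested on simulated data. Regions are named by a rule: on each sequence the 5 longest combined clusters, the 3 highest-scoring of replicate length and the highest of any length, the 3 longest stretches in both replicates, the longest unshared cluster of each replicate, the 3 longest stretches without a combined cluster, the 3 most and 3 least covered bins and the longest run. Other bins and blocks were chosen after their values were seen. The members and rules were chosen with earlier results of these data known.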

Additional observations from a re-analysis of the deposited data

How the results depend on the processing

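3RHet stayed above 3LHet in coverage, median score and median length under each alternative run for them. The 50% filter selects on score and the 1301 bp minimum on length, so neither is an independent check of the measure it selects on. Of 39 alternative values, 22 moved by less than their error, or by less than 5% where no error exists, and 17 moved. This leaves out 11 values that could not exceed their error by construction, which are those without 1 of the 2 replicates and those of a length minimum that removes no replicate cluster. For mean replicate coverage the error was the SD of 2 replicates, 5.97 on 3LHet and 9.06 on 3RHet, so only a very large shift could count as moved. With the highest-scoring 50% of each list this mean fell from 8.21% to 5.4% on 3LHet and from 11.6% to 8.73% on 3RHet. Both were counted as not moved. With the highest-scoring 50% of each list, combined coverage was 26.0% on 3LHet and 35.1% on 3RHet, the ratio of 3RHet to 3LHet was 1.35 in the combined list and 1.56 in the mean of replicates, shared bases were 3.08% and 9.38% of those in either replicate, 3.58% of combined clusters on 3LHet met both replicates, and the medians differed by 0.022 in score and 258 bp in length. With clusters at least as long as 1301 bp, combined coverage was 29.7% and 37.3%, 11.9% and 16.2% of combined clusters met both replicates, and median lengths differed by 520.5 bp. Without the first and last full bins, combined coverage of 3LHet was 36.0%. Leaving out clusters with a reduced input count of 5 or less, chosen after seeing the data, gave 8.68% shared bases on 3LHet and a length difference of 192 bp. Leaving out 1 replicate gave coverage from 3.99% to 12.4% on 3LHet and from 5.19% to 18.0% on 3RHet, and a ratio from 1.30 to 1.45. The filters also make the lists smaller, and the cause of these shifts was not tested. No paired analysis was possible because the groups that share replicate numbers are ChIP and input, and no list of the input samples was used here. Unknown depth and the unknown share of alignable bases limit what an uncovered stretch shows.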
